A study of Mus musculus with 6 samples.

Results

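Processed pseudogenes are copies of messenger RNAs that were reverse transcribed and inserted back into the genome, and 284 of them carried enough reads in these libraries to be described. They were the autosomal genes annotated as processed pseudogene whose mean over the 6 libraries was at least 3 CPM (counts per 1000000 counts of the library). The count table lists 9497 processed pseudogenes, of which 8476 are autosomal and 2629 of these had at least 1 count. Another 22 on X, Y or unplaced scaffolds reached 3 CPM and were not included, since the rule took autosomes alone. The members were chosen by this mean CPM, so their levels are given as a description. The last members inside the limit were Prkcz2 at 3.00, Gm10167 at 3.01 and Gm9855 at 3.02 CPM, and the first outside it were Gm11223 at 2.99, Amd-ps3 at 2.98 and Gm6877 at 2.93 CPM.

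A processed pseudogene has no introns and no promoter of its own, and most carry a remnant of the poly(A) tail. Genes transcribed strongly in the germ line, above all those of ribosomal proteins and glycolytic enzymes, left the most copies in the mouse genome. A young copy is nearly identical to the mature messenger RNA of its parent gene. A short read from the parent's messenger RNA then matches the copy as well as it matches the parent, and without introns no splice junction marks the difference.

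The libraries were 3 from cells with a stable hairpin against Irs2 (shIRS2, labelled as a knockdown) and 3 from cells with a control hairpin (shControl, labelled as wild type), all labelled as Glu-tag cells of the mouse small intestine. Glu-tag is an enteroendocrine line known for secreting proglucagon-derived peptides, and Irs2 encodes an adaptor of the insulin and IGF receptors. The study asked which transcripts respond to Irs2 silencing in neuroendocrine tumour cells. The library totals were 15654814 to 16985361 counts in shIRS2 and 14991019 to 19790073 counts in shControl libraries, and 19943 to 20942 genes had a count. Irs2 itself had 31.4, 28.6 and 38.7 CPM in the libraries labelled shIRS2, against 31.6, 22.7 and 34.3 CPM in shControl libraries, so the targeted transcript was not lower and the label is used as a name only. Of 15 enteroendocrine markers, 6 had 0 counts in all 6 libraries, among them Gcg (proglucagon), Chga and Pcsk1, which allows up to 0.0295 CPM over the 6 libraries. Only Pax6 and Nkx2-2 of that list averaged at least 1 CPM. Of the 9 fibroblast markers 5 did, while Thy1 had 0 counts and Dcn, Col1a1 and Fap averaged 0.25, 0.21 and 0.06 CPM. The summed level of the 9 was 966, 850 and 989 CPM in shIRS2, against 654, 629 and 967 CPM in shControl libraries. Most of it was Col3a1, and Col1a2 and Lum averaged only 3.68 and 2.62 CPM. The part of these markers in the results below was not tested.

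The sequences show how close the copies are. Reads were 150 bases long, per the labels' protocols, so stretches of 150 bases are given for pairs of pseudogene and parent, 5′ to 3′ on the sense strand, from the transcripts of GENCODE release M21 (build GRCm38, the same as mm10). Gm10241 and its parent Sumo2, and Gm44126 and its parent Uxs1, are the pairs whose pseudogene differed most between the hairpin groups, and each stretch is the same in both genes:
Gm10241 and Sumo2: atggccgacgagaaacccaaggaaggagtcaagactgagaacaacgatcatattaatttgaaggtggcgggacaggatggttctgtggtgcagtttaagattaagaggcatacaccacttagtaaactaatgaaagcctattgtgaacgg
Gm44126 and Uxs1: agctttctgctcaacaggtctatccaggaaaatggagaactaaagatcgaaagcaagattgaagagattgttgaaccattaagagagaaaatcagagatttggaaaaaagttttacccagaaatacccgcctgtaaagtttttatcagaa
The first lies at chr16:20176863-20177012 on the minus strand, in an intron of Yeats2, which is on the opposite strand. The second lies at chr6:76284416-76284565 on the plus strand, between genes. The parents Sumo2 and Uxs1 are on chromosomes 11 and 1. A read drawn from either stretch is the same whichever of the pair it came from.

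In other pairs single bases differ, and capitals mark those positions. Each stretch was chosen as the one with the most differences from the parent, without gaps, so it does not stand for the whole copy. Gm10039 is shown because it moved with its parent Atp5g1 across libraries, and Rps10-ps2 because it held most of the reads of its pair:
Gm10039: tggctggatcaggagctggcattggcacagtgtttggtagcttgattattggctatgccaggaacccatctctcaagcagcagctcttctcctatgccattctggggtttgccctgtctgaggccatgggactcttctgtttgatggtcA
Atp5g1: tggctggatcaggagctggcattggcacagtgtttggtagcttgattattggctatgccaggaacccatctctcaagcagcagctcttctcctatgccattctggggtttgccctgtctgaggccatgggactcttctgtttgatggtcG
Rps10-ps2: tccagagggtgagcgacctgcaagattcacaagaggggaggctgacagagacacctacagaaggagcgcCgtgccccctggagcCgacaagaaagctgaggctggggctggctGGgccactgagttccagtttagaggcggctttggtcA
Rps10: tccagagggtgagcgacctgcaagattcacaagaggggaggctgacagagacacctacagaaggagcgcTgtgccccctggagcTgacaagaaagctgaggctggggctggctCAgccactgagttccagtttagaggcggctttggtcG
Gm10039 is at chr11:100361742-100361891 (minus strand) and differs from Atp5g1 at 1 position of this stretch. Rps10-ps2 is at chr16:20822168-20822317 (minus strand) and differs from Rps10 at 5 positions. The next pairs are shown because the pseudogene and the parent had different patterns, Gm5854 between hairpin groups and Gm9824 between replicate numbers:
Gm5854: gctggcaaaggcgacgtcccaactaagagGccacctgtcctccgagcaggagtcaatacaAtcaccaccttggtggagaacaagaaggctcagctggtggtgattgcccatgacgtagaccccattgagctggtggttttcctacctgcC
Rpl7a: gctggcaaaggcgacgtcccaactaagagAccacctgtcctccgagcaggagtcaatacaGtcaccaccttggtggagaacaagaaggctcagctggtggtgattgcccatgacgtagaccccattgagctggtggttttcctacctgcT
Gm9824: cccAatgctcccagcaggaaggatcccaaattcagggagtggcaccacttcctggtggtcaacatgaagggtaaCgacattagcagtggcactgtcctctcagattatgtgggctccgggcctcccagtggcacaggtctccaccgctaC
Pebp1: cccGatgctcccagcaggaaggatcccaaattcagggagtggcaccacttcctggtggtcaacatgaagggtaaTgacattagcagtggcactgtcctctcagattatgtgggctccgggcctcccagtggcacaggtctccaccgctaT
Gm5854 is at chr14:101982273-101982422 (minus strand) and Gm9824 at chr10:29030338-29030487 (plus strand). Each differs from its parent, Rpl7a or Pebp1, at 3 positions of the stretch. Over the whole alignment, where gap positions also count as differences, they were 34 of 798 positions in Gm5854, 6 of 561 in Gm9824 and 5 of 496 in Rps10-ps2. The printed stretches leave gaps out, so they can show fewer differences than other parts of the copy. All of these stretches lie within the coding sequence of the parent.

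By sequence, members were on the whole closer to their parents than other pseudogenes were. Each autosomal processed pseudogene was aligned to the protein-coding transcripts, and the best match was taken as its parent. The median identity of the members was 99.3% (interquartile range 98.7 to 99.8%), against 94.4% for the 2345 pseudogenes with counts but under 3 CPM, and 86.3% for the 5847 with 0 counts. An identity of at least 99% was found in 180 members, which is 63.4%, against 10.5% and 1.14% of those other sets. Among pseudogenes aligned over at least 90% of their length, 38.1% of the 118 identical to a coding transcript were members and 37.8% of the 357 with 99% to under 100%. The share was 17.5% of 332 at 98 to 99%, 3.28% of 1038 at 95 to 98%, 0.427% of 1638 at 90 to 95% and 0.0568% of 3524 under 90%. The share of members was thus smaller at each step of divergence below 99%, although most pseudogenes of at least 99% identity were not members, and the members went down to 74.8%.

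**Figure D1:**
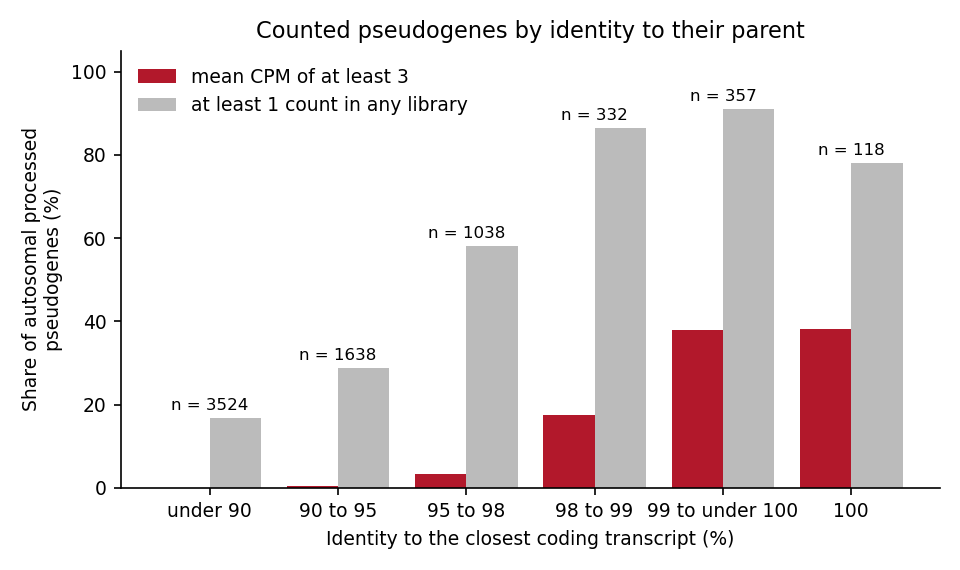
Share of autosomal processed pseudogenes (y axis, percent) with a mean of at least 3 CPM (red) or at least 1 count in any library (grey), by identity to the closest coding transcript (x axis, percent); n is the number of pseudogenes in each class. At identity of 99% to under 100%, 37.8% were members and 91.0% had a count, against 0.427% and 28.8% at 90 to 95%.

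Identity at read length followed the same order. Of the 282 members of at least 150 bases, 249 (88.3%) held at least 1 stretch of 150 bases found unchanged in a protein-coding transcript, against 25.6% of the pseudogenes under 3 CPM and 2.62% of those with 0 counts. In the median member 40.1% of all such stretches were found unchanged. In 42 members every stretch was, and in 33 none was. The level of the parent differed less between these sets, with medians of 248 CPM for parents of members, 145 CPM for parents of pseudogenes under 3 CPM and 128 CPM for those with 0 counts. How the authors' counting placed reads that match several genes is not given in the sources used here, so for most members the part of the count that came from the parent's transcript cannot be told apart from transcription of the pseudogene.

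By position, 190 of the 284 members lay between genes, 46 in an intron of a gene on the opposite strand, 45 in an intron of a gene on the same strand and 3 over an exon on the opposite strand. Intergenic members made up 66.9%, between the 53.6% of pseudogenes under 3 CPM and the 77.2% of those with 0 counts. The host genes of the 45 members in same-strand introns had a median of 7.44 CPM, and 20 of these hosts were under 1 CPM.

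A few parents gave many members. The name of 66 members states a parent, and for all 66 the alignment gave the same gene. The 284 members had 219 parents, of which 177 had 1 member and 42 had at least 2. Rps2, a protein of the small ribosomal subunit, had 6, and Hmgb1, an abundant chromatin protein, and Rpl7a, a protein of the large subunit, had 5 each. Gapdh, Rpl23a and Rpl29 had 4 each. Ribosomal proteins were the parents of 89 members, from 54 parent genes, and these 89 held 45.5% of all member counts. Parents of the translation and folding list (such as Ppia, Eif4a1, Npm1 and Hspd1) had 12 members, glycolytic enzymes 9, HMG chromatin proteins 8, cytoskeletal proteins 6 and the energy and ubiquitin list 3. The other 157 members had 141 parents outside these lists.

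Levels ranged from 3.00 to 219 CPM with a median of 9.95 CPM. There were 141 members at or above 10 CPM and 15 at or above 100 CPM. The members held 90.9% of the counts on all autosomal processed pseudogenes, and the 12 highest alone held 29.6% of the members' counts. The highest was Gm10123, an intergenic copy on chromosome 9 that is identical to Ppia (cyclophilin A, a proline isomerase), with a mean of 219 CPM. It was followed by Gm9794, a copy of Rpl23 at 195 CPM, Rps10-ps2 at 184 CPM, Rpl14-ps1 at 176 CPM and Eif4a-ps4, a copy of the RNA helicase gene Eif4a1, at 173 CPM. Gm4204, a copy of the histone chaperone gene Nap1l1, had 163 CPM, Rpl17-ps10 154 CPM and Gm9800, a copy of prothymosin alpha (Ptma), 148 CPM. Rpsa-ps10 had 134 CPM, Impdh2-ps, a copy of the gene for the rate-limiting enzyme of guanine nucleotide synthesis, 129 CPM, Rpl17-ps3 124 CPM and Rps6-ps4 114 CPM. Among these 12, between 33.7 and 100% of the 150-base stretches were found unchanged in a coding transcript. Rps6-ps4 and Gm10123 were at 100%.

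Per length, most members stood below their parent. In FPKM (fragments per kilobase of gene length, scaled to the library's total), 234 members were at or below the parent's level and 50 above it, and the median member was at 23.7% of its parent (interquartile range 6.13 to 65.8%). The parent's FPKM uses the gene length the authors' table lists, which covers all exons of the gene, and the ratio depends on that length. Gm10123 averaged 446 FPKM, beside 491 FPKM for Ppia. Rps10-ps2 averaged 369 FPKM, beside 3.69 FPKM for Rps10.

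**Figure D2:**
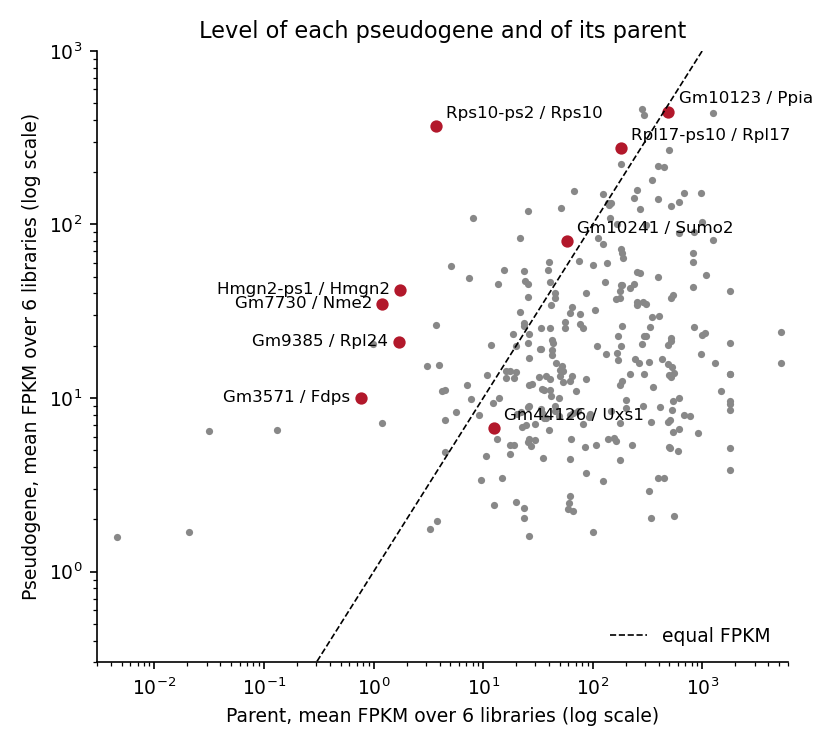
Mean FPKM over the 6 libraries of each member (y axis, log scale) against that of its parent (x axis, log scale), 1 point per pseudogene; the dashed line marks equal levels and red points are labelled pseudogene / parent. Of the 284 points, 50 lie above the line, and Rps10-ps2 stands at 369 FPKM beside 3.69 FPKM for Rps10.

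The pair of Rps10 and its copy was the most uneven of the highly counted pairs. Rps10-ps2 had 158, 167 and 206 CPM in shIRS2, against 222, 163 and 188 CPM in shControl libraries. Rps10, a protein of the small ribosomal subunit, had 7.01, 8.28 and 8.37 CPM in shIRS2, against 8.34, 10.6 and 8.81 CPM in shControl libraries. Between 93.9 and 96.4% of the counts of this pair were on the pseudogene in every library, and the groups overlapped for both genes. Other coding genes were below a copy in the same way. Gm7730 averaged 34.8 FPKM beside 1.21 FPKM for Nme2, a nucleoside diphosphate kinase, Gm9385 averaged 21.1 FPKM beside 1.69 FPKM for Rpl24, and Gm3571 averaged 10.1 FPKM beside 0.766 FPKM for Fdps, the farnesyl diphosphate synthase of the mevalonate pathway. These 4 parents, Rps10, Nme2, Rpl24 and Fdps, share between 20.6% and 48.9% of their exon bases with another gene annotated on the same strand. Of the 219 parents, 5 shared at least 20% of their exon bases in this way, a limit chosen after the values were seen, and 4 of these 5 had a copy of higher FPKM. Over all parents 42 of 219 did. Whether the authors' counting set aside reads in shared exons was not tested. Hmgn2, a nucleosome-binding HMG protein gene that was not among those 5, stood likewise. It averaged 1.75 FPKM beside 42.1 FPKM for its identical copy Hmgn2-ps1.

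Between hairpin groups, no member passed the test, and none of the 13472 genes tested did (0%). All 284 members were among these genes. At an unadjusted p below 0.05, edgeR listed 7 members, 2.46% of them, against 1.94% of all genes tested. With the replicate number as a block these were 20 members, 7.04%, against 9.16% of all genes. The members had 120 log2 fold changes above 0 and 164 below it, with a median of -0.04 beside -0.0003 for all genes. The 95% interval of the fold change lay within 2-fold for 268 of the 284 members, against 11747 of all 13472 genes tested. Genes under 3 CPM are among the latter, so the 2 sets differ in level. For the 12 members of highest level the log2 fold changes ran from -0.10 to 0.12 and their intervals from -0.38 to 0.42, so for these a 2-fold difference between the groups lies outside every interval.

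Together the members took 0.631, 0.636 and 0.639% of the counts in shIRS2, against 0.673, 0.657 and 0.632% in shControl libraries. The group means were 0.635 ± 0.0036% in shIRS2 and 0.654 ± 0.0204% in shControl libraries (SD, n = 3 each). The shIRS2 libraries lay close together, and the groups overlapped, since shControl library 3 was below shIRS2 libraries 2 and 3. The difference of -0.0186 percentage points gave p = 0.3 in a two-sided exact permutation test, in which 3 libraries against 3 cannot go below 0.1.

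Every shIRS2 library lay above every shControl library for 4 members, 1.41%, against 2.75% of all genes tested. Every shIRS2 library lay below every shControl library for 19 members, 6.69%, against 3.77% of all genes. After TMM scaling these counts were 6 above (3.26% of all genes) and 14 below (3.1% of all genes), which are 2.11 and 4.93% of the members. The limit of 3 CPM bears on these counts: 7 members had a shControl mean under it, and 5 had a shIRS2 mean under it, so they are members only through the group in which they are higher. Of these 12, the groups stood apart in Gm44126 and Gm17828.

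Gm44126 had the largest fold change of the members. This 514-base copy of Uxs1, which encodes the enzyme that makes UDP-xylose for proteoglycan synthesis, is identical to its parent over the aligned length and lies at chr6:76284416-76284929. It had 8.48, 5.36 and 2.81 CPM in shIRS2, against 2.20, 0.859 and 1.07 CPM in shControl libraries. The groups did not overlap, although shIRS2 library 3 stood close to shControl library 1. The means were 5.55 ± 2.84 CPM in shIRS2 and 1.38 ± 0.721 CPM in shControl libraries (SD, n = 3 each). The log2 fold change was 2.06 (SE 0.45) with an edgeR adjusted p of 1.00. With the replicate number as a block it was 2.02 (SE 0.25) with an edgeR adjusted p of 0.0114, and Gm44126 was then the only gene called of all tested (0.00742%). Within the pairs of equal number its log2 ratio was 1.90, 2.51 and 1.31. Its shControl mean is under 3 CPM, so Gm44126 is a member only through the shIRS2 libraries and its difference is tied to the rule. It was also singled out with earlier results of these data known, so these values are a description and support nothing. Uxs1 itself had 54.6, 62.6 and 60.8 CPM in shIRS2, against 61.7, 71.4 and 71.0 CPM in shControl libraries, with overlapping groups and a log2 fold change of -0.19 (SE 0.11). Of the counts on the pair, Gm44126 held 13.4, 7.89 and 4.42% in shIRS2, against 3.44, 1.19 and 1.49% in shControl libraries, so its share was small in every library.

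Gm10241 had the largest fold change in the other direction. It is a 286-base copy of Sumo2, the gene of a small ubiquitin-like modifier, identical over its whole length. It had 16.7, 9.43 and 11.5 CPM in shIRS2, against 17.2, 33.2 and 50.1 CPM in shControl libraries. The groups did not overlap, but shIRS2 library 1 and shControl library 1 were nearly equal. The means were 12.6 ± 3.76 CPM in shIRS2 and 33.5 ± 16.5 CPM in shControl libraries (SD, n = 3 each), and the log2 fold change was -1.41 (SE 0.36) with an edgeR adjusted p of 1.00. Sumo2 had 111, 131 and 126 CPM in shIRS2, against 119, 102 and 14.2 CPM in shControl libraries. Only shControl library 3 was low for Sumo2, and it was the library in which Gm10241 was highest. Gm10241 held 77.9% of the counts of the pair in that library, against 6.74 to 24.5% in the others. The counts of the pair together came to 127, 140 and 137 CPM in shIRS2, against 136, 136 and 64.4 CPM in shControl libraries. Without shControl library 3 the log2 fold change of Gm10241 was -1.01, with an edgeR adjusted p of 0.955.

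**Figure D3:**
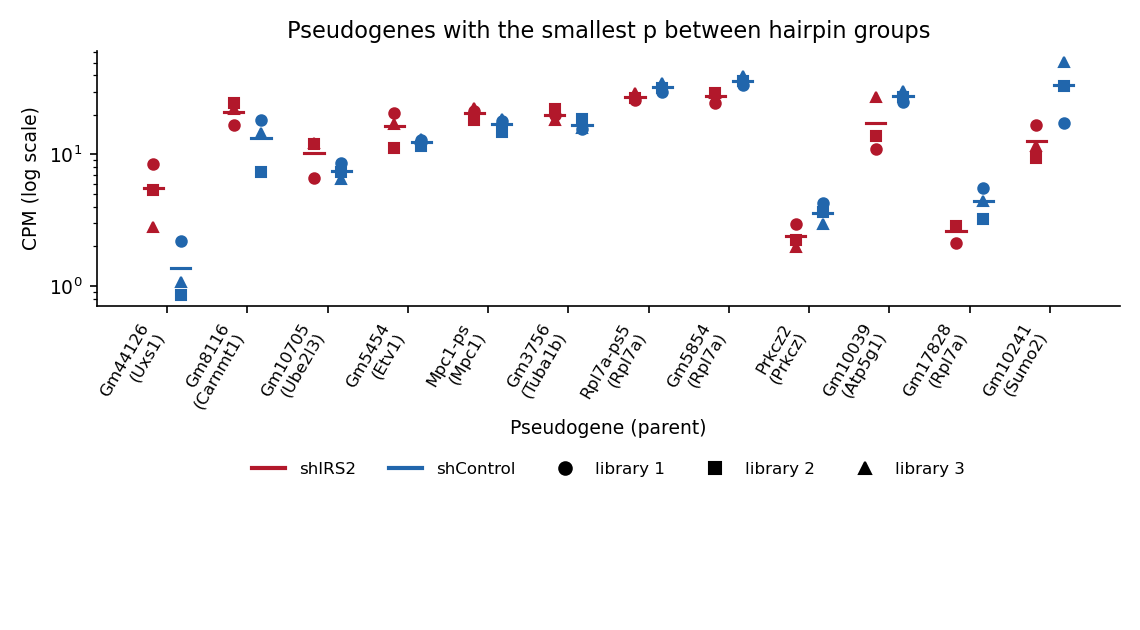
CPM (y axis, log scale) of the 12 members with the smallest p between hairpin groups, 6 in each direction, in shIRS2 (red) and shControl (blue) libraries; shapes give the library number, bars the group mean, and names in brackets the parent. Gm44126 averaged 5.55 CPM in shIRS2 and 1.38 CPM in shControl libraries, Gm10241 12.6 CPM in shIRS2 and 33.5 CPM in shControl libraries, and in 7 of the 12 the groups overlap.

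Gm10039 moved together with its parent. It copies Atp5g1, a gene of subunit c of the mitochondrial ATP synthase, and differs from it at 1 base of 411. It had 11.01, 13.9 and 27.4 CPM in shIRS2, against 25.1, 27.4 and 30.3 CPM in shControl libraries. Atp5g1 had 34.7, 49.2 and 97.5 CPM in shIRS2, against 96.0, 89.6 and 90.6 CPM in shControl libraries. In both genes shIRS2 libraries 1 and 2 were low and shIRS2 library 3 was at the shControl level, so the groups overlapped. The pseudogene held 20.8 to 25.1% of the counts of the pair in every library. The log2 fold changes were -0.66 (SE 0.28) for Gm10039 and -0.60 (SE 0.32) for Atp5g1, both with an edgeR adjusted p of 1.00.

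Gm8116 and its parent ran in opposite directions. Gm8116, a copy of Carnmt1, the carnosine methyltransferase gene, had 16.7, 24.7 and 22.1 CPM in shIRS2, against 18.1, 7.38 and 14.6 CPM in shControl libraries. Carnmt1 had 33.0, 31.3 and 27.9 CPM in shIRS2, against 33.1, 52.3 and 41.6 CPM in shControl libraries. The library with the lowest Gm8116, shControl 2, had the highest Carnmt1, while the sum of the pair ran from 49.7 to 56.0 CPM in shIRS2 and from 51.2 to 59.7 CPM in shControl libraries. The log2 fold change was 0.69 (SE 0.29) for Gm8116 and -0.45 (SE 0.17) for Carnmt1.

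The copies of Rpl7a gave 3 of the 6 smallest p-values on the lower side. Gm5854, at 95.7% identity, had 24.5, 29.6 and 29.3 CPM in shIRS2, against 33.8, 36.3 and 39.2 CPM in shControl libraries. Rpl7a-ps5 had 26.0, 27.0 and 29.5 CPM in shIRS2, against 30.1, 32.1 and 34.8 CPM in shControl libraries. Gm17828 had 2.12, 2.86 and 2.87 CPM in shIRS2, against 5.6, 3.23 and 4.40 CPM in shControl libraries. In all 3 the groups did not overlap, and the log2 fold changes were -0.38 (SE 0.12), -0.22 (SE 0.11) and -0.73 (SE 0.26), each with an edgeR adjusted p of 1.00. The shIRS2 mean of Gm17828, 2.62 ± 0.432 CPM (SD, n = 3), is under 3 CPM, so it is a member only through the shControl libraries and its separation is tied to the rule. Rpl7a itself had 370, 290 and 306 CPM in shIRS2, against 327, 335 and 267 CPM in shControl libraries, with overlapping groups and a log2 fold change of 0.07 (SE 0.12). The remaining copies of Rpl7a, AC121151.1 and Gm16477, had log2 fold changes of 0.03 and -0.16. Few of the 150-base stretches of these copies were found unchanged in a coding transcript, 6.73% in Gm5854, 14.3% in Rpl7a-ps5 and 9.85% in Gm17828. Stretches shared among the copies were not counted. Gm5854 and Rpl7a-ps5 were lowest in shIRS2 library 1, where Rpl7a was highest, and highest in shControl library 3, where Rpl7a was lowest. The remaining libraries did not follow that inverse order.

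The other members named for their p between hairpin groups were not called either. Mpc1-ps, a copy of a mitochondrial pyruvate carrier gene, averaged 20.8 ± 2.17 CPM in shIRS2 and 17.1 ± 2.09 CPM in shControl libraries (SD, n = 3 each). Gm3756, a copy of the alpha tubulin gene Tuba1b, averaged 20.1 ± 1.82 CPM in shIRS2 and 16.7 ± 1.65 CPM in shControl libraries, Gm10705, a copy of the ubiquitin-conjugating enzyme gene Ube2l3, 10.3 ± 3.16 CPM in shIRS2 and 7.49 ± 1.04 CPM in shControl libraries, and Gm5454, a copy of the transcription factor gene Etv1, 16.4 ± 4.75 CPM in shIRS2 and 12.5 ± 0.822 CPM in shControl libraries. Their groups overlapped. Prkcz2, a copy of the atypical protein kinase C gene Prkcz, averaged 2.39 ± 0.497 CPM in shIRS2 and 3.61 ± 0.667 CPM in shControl libraries, with shIRS2 library 1 and shControl library 3 almost equal, and is likewise a member only through the shControl libraries. Prkcz itself was below the filter on low counts.

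By parent family, copies of ribosomal proteins leaned to the lower side without a call. Of 89, 59 had a log2 fold change below 0 and 30 above it, with a median of -0.09. The count of 59 was the same under each of the 3 scalings tried. A scaling moves all genes of a library alike, so that sameness is no support for the lean. The ribosomal protein genes themselves gave 63 of 83 below 0 with a median of -0.05, and none was called by edgeR. Over all genes tested 50.1% were below 0 (53.9% with library totals alone), and over all members 57.7% (60.9%). When single libraries were left out, the median of all members ran from -0.062 to -0.013. The ribosomal copies were not refitted as a set in that way. The members of one family may share reads with their parents and with each other, so they are not independent. The HMG copies had 5 of 8 above 0 with a median of 0.08, the glycolytic copies 4 of 9 with a median of -0.0039, the translation and folding copies 7 of 12 with a median of 0.02 and the cytoskeletal copies 4 of 6 with a median of 0.22. The energy and ubiquitin copies had 2 of 3 above 0, with a median of 0.13. The glycolytic copies had 3 of 9, and the translation and folding copies 6 of 12, above 0 when libraries were scaled by their totals alone.

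Many genes differed between the replicate numbers, and the share of members among them was below that of all genes. In a fit with hairpin group and replicate number, edgeR called 22 members between numbers 1, 2 and 3, which is 7.75%, against 19.6% of all 13472 genes tested. The contrast of number 2 with the mean of numbers 1 and 3 was above 0 for 15 of them, 5.28% of members against 9.38% of all genes, and below 0 for 7, 2.46% against 10.2%. This contrast was chosen because earlier results of these data had shown the libraries numbered 2 to stand apart. Members have lower counts than many coding genes, and the part of depth in the smaller share called was not tested. The biological coefficient of variation was estimated by edgeR in the fit with group alone. Its median was 16.3% in members against 16.2% in protein-coding genes at 3 to 10 CPM. It was 13.7 against 12.9% at 10 to 30 CPM and 10.8 against 10.5% from 30 CPM up. These estimates are drawn toward a common trend over genes of like level, so their likeness is partly built in. Leaving out single libraries moved the count of 22, and the calls over all genes moved with it. It was 12 (4.23%, against 5.83% of all genes) without shControl 2 and 13 (4.58%, against 7.05%) without shIRS2 2. It was 38 (13.4%, against 27.4%) without shControl 1 and 44 (15.5%, against 22.3%) without shControl 3. It was 45 (15.8%, against 24.99%) without shIRS2 3 and 48 (16.9%, against 26.5%) without shIRS2 1. With no filter on low counts, 33 members were called, 11.6% against 12.4% of all genes. The genes tested then rose from 13472 to 25979 by genes of low counts, and those called from 2638 to 3216. All 284 members were in both sets, so the smaller gap there is not a comparison of like sets. What the numbers stand for is not stated in the labels, so a culture, a day and a sequencing run cannot be told apart.

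Of the 15 members called and higher in the libraries numbered 2, 4 were copies of the translation and folding list, namely Eif4a-ps4, Gm9118, Gm5611 and Hspd1-ps3, of 12 such members. Another 2 of them, Gm5527 and Gm46432, were copies of Hmgb1, of 8 copies of HMG genes. Of the coding genes of these lists, 5 of 12 and 2 of 9 were called. Ribosomal protein copies gave 1 call among 89, and the ribosomal protein genes 4 among 83. Eif4a-ps4 had 189 and 202 CPM in the libraries numbered 2 (shIRS2, then shControl), against 156 and 166 CPM in those numbered 1 and 160 and 165 CPM in those numbered 3. Both libraries numbered 2 were above the other 4, as they were for the parent Eif4a1, which had 1159 and 1201 CPM under number 2 against 934 to 958 CPM under the others. The log2 contrasts were 0.30 (SE 0.06, edgeR adjusted p = 0.0083) for Eif4a-ps4 and 0.35 (SE 0.06, edgeR adjusted p = 0.0037) for Eif4a1. Gm9118, a copy of the nucleolar chaperone gene Npm1 at 97.0% identity, had 32.4 and 37.9 CPM under number 2, against 29.4 and 29.5 CPM under number 1 and 23.1 and 26.0 CPM under number 3. Its contrast was 0.42 (SE 0.09, edgeR adjusted p = 0.0071), beside 0.34 (SE 0.07) for Npm1. A second copy of Npm1, Gm5611, was also called with a contrast of 0.66, and the third, Gm6477, had 0.39 without a call.

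Gm12715, a copy of the gamma actin gene Actg1, had 23.3 and 21.9 CPM under number 2, against 15.2 and 13.9 CPM under number 1 and 16.0 and 19.3 CPM under number 3. Gm10052, identical to the RNA-binding protein gene Hnrnpa1, had 43.6 and 54.7 CPM under number 2, against 43.4 and 37.4 CPM under number 1 and 34.9 and 34.3 CPM under number 3. In both, each library numbered 2 was above the other 4, in Gm10052 by a narrow margin. The contrasts were 0.52 (SE 0.11) and 0.43 (SE 0.10), beside 0.38 (SE 0.07) for Actg1 and 0.34 (SE 0.08) for Hnrnpa1. Gm6457, a copy of the ribosome assembly gene Rsl24d1, had 12.8 and 14.2 CPM under number 2, against 8.60 and 9.07 CPM under number 1 and 9.52 and 6.49 CPM under number 3, a contrast of 0.73 (SE 0.15) beside 0.69 (SE 0.08) for its parent. AC121151.1, a copy of Rpl7a, was lowest under number 1 rather than highest under number 2. It had 10.1 CPM in both libraries numbered 2, against 6.06 and 7.87 CPM under number 1 and 12.6 and 10.2 CPM under number 3.

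**Figure D4:**
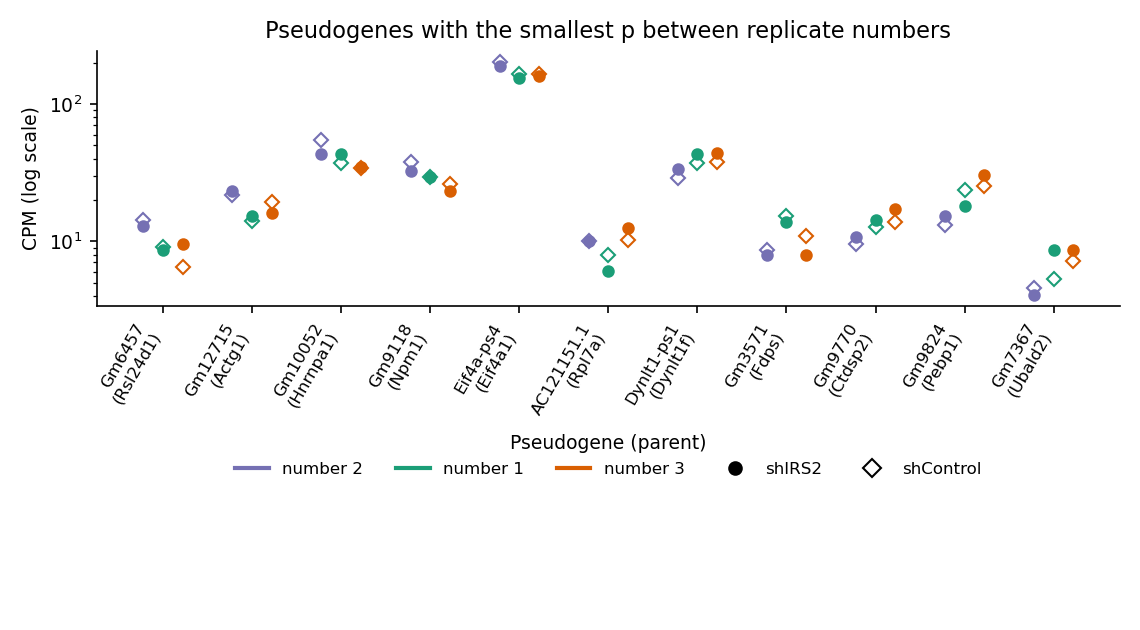
CPM (y axis, log scale) of 11 of the 12 members named for the smallest p between replicate numbers, with libraries numbered 2 (purple), 1 (green) and 3 (orange), shIRS2 as filled circles and shControl as open diamonds; the 12th, Gm44126, is in the plot of hairpin groups. Gm6457 had 12.8 and 14.2 CPM under number 2 and at most 9.52 CPM elsewhere, and Gm7367 had 4.08 and 4.55 CPM under number 2 and at least 5.34 CPM elsewhere.

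On the lower side, Gm9824 had the smallest p of all members and stood apart from its parent. This copy of Pebp1, the gene of a phosphatidylethanolamine-binding protein that restrains Raf kinase, had 15.3 and 13.1 CPM under number 2, against 18.1 and 23.5 CPM under number 1 and 30.3 and 25.3 CPM under number 3. Both libraries numbered 2 were below the other 4, and those numbered 3 were highest. The contrast was -0.73 (SE 0.13) with an edgeR adjusted p of 0.0018. Pebp1 had 277 and 260 CPM under number 2, against 265 and 325 CPM under number 1 and 311 and 286 CPM under number 3, with a contrast of -0.11 (SE 0.08, edgeR adjusted p = 0.534). Gm9824 differs from Pebp1 at 6 of 561 aligned bases, and 15.5% of its 150-base stretches were found unchanged in a coding transcript.

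Gm3571 went against its parent. It had 7.97 and 8.59 CPM under number 2, against 13.7 and 15.2 CPM under number 1 and 7.92 and 10.9 CPM under number 3, so the libraries numbered 1 were high. Its contrast was -0.46 (SE 0.14, edgeR adjusted p = 0.0052), and that of Fdps was 0.45 (SE 0.21, edgeR adjusted p = 0.157), with Fdps at only 2.24 to 4.2 CPM. Dynlt1-ps1, identical to Dynlt1f, a dynein light chain gene with other equally close copies, had 33.4 and 28.7 CPM under number 2, against 43.4 and 37.0 CPM under number 1 and 43.9 and 37.6 CPM under number 3. Gm9770, a copy of the phosphatase gene Ctdsp2, had 10.7 and 9.60 CPM under number 2, against 12.6 to 17.2 CPM in the other 4 libraries, with a contrast of -0.47 (SE 0.12) beside -0.46 (SE 0.06) for Ctdsp2. Gm7367, a copy of Ubald2, had 4.08 and 4.55 CPM under number 2, against 5.34 to 8.69 CPM in the other 4 libraries, with a contrast of -0.74 (SE 0.19) beside -0.58 (SE 0.10) for Ubald2. For these 3 both libraries numbered 2 were below all others. Gm44126 was also called between numbers (edgeR adjusted p = 0.0103), with its libraries numbered 1 the highest of each hairpin group and a contrast of -0.13 (SE 0.25).

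Of the 22 members called between numbers, 20 had a contrast of the same sign as the parent, the exceptions being Gm3571 and Gm44126. The parent was called too for 14 of the 22, in each case with the same sign. In reverse, 53 members had a parent that was called, and 14 of these members were. The contrast was above 0 for 172 of the 284 members and 139 of the 214 tested parents, against 6651 of all 13472 genes tested. The medians were 0.06, 0.06 and -0.004. The share of like sign over all members was not computed. Pseudogene and parent share sequence, so reads of the one may be counted on the other, and the like direction is no independent measurement. When the counts of the members were added to their parents, a setting chosen after seeing the data, 44 of the 214 tested parents (20.6%) were called between numbers, against 43 (20.1%) on their own counts, 40 of them in both. These shares are near the 19.6% of all genes. None of the parents was called between hairpin groups either way. The largest move of a parent's hairpin log2 fold change on adding its copies was 0.69.

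**Figure D5:**
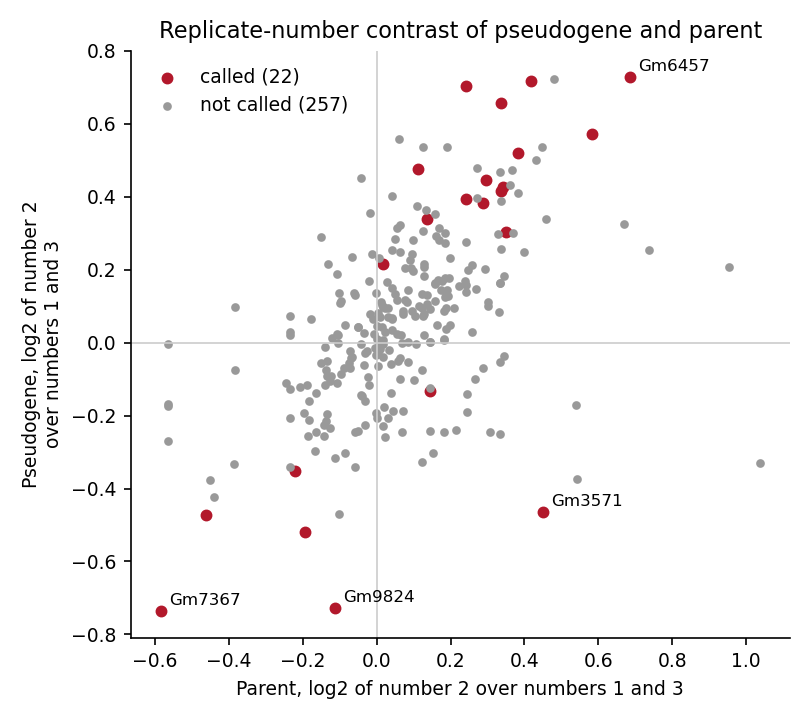
Log2 contrast of the libraries numbered 2 over those numbered 1 and 3, for each member (y axis) against its parent (x axis), over the 279 members with a tested parent; red points are the 22 members called by edgeR. Gm6457 and Gm7367 lie with their parents at the upper right and lower left, Gm9824 has -0.73 beside -0.11 for Pebp1, and Gm3571 has -0.46 beside 0.45 for Fdps.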

How the data were processed

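For 6 libraries, 3 shIRS2 and 3 shControl, the authors deposited a table of raw counts per gene and a table of FPKM values, each FPKM being the count over the listed gene length and a library total. Reads were aligned to mm10, per the submitters' processing notes. Libraries kept the strand, per the labels' protocols. The aligner and the counting tool, with how it used strand and reads matching several genes, were not given in the sources used here. Columns beginning NC were taken as shControl and those beginning S as shIRS2, from the names alone. Library totals were 14991019 to 19790073 counts.

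Counts were analysed with edgeR 4.0.16 in R 4.3.3. Genes passing filterByExpr by group (13472) were scaled by TMM and tested by the robust quasi-likelihood test, two-sided, with Benjamini-Hochberg adjustment over all of them and a threshold of 0.05. Replicate numbers were tested by an F test in a fit with group and number. The scripts were tested on simulated data. No label ties equal numbers across groups, yet the deviations of equally numbered libraries from their group means correlated at 0.227, 0.691 and 0.355 for numbers 1, 2 and 3. Over the 284 members alone these correlations were -0.122, 0.223 and 0.0945. The main hairpin test had group alone, so its fold changes, SEs and intervals take no account of pairing. A fit with the replicate number as a block was run as an alternative. Blocked values are given where they change a call. The series describes biological triplicates, but no label names separate cultures, so the p-values measure differences between libraries that may be technical.

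Pseudogene transcripts of GENCODE M21 were aligned to its protein-coding transcripts with BLAST 2.17.0 (plus strand, E-value limit 1e-10), and the highest bit score gave the parent, with 9 members tied. Besides Gm44126 and Gm10241, the text names the 12 members of highest level, the 6 with the smallest edgeR p in each direction between hairpin groups and between replicate numbers, and their parents. Members described for other values were chosen after these were seen. Members, parent lists and contrast were chosen with earlier results of these data known. Alternatives were DESeq2 1.42.0, limma-voom, limma 3.58.1 on log2(FPKM + 1) and log2(FPKM + 0.1), other scalings and filters, the replicate block, other levels for membership, and leaving out libraries. The limit for 0 counts is 3 counts over the 6 totals and covers counting error only; no molecular identifiers are named in the labels.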

Additional observations from a re-analysis of the deposited data

How the results depend on the processing

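With the replicate block, DESeq2 or no filter on low counts, 1 member was called between hairpin groups instead of 0, each time Gm44126, with log2 fold changes of 2.02, 2.05 and 2.07 and adjusted p-values of 0.0114, 0.0282 and 5.65e-09. Over all genes these settings called 1 of 13472, 2 of 13472 and 6 of 25979. In the other alternatives run its adjusted p was 0.706 or higher, with log2 fold changes of 1.62 to 2.52 when single libraries were left out. The replicate block changed no other call of a member. Members called between replicate numbers were 22, or 7.75% against 19.6% of all genes. They were 12 (4.23 against 14.6%) with the replicate number alone in the fit and 7 (2.46 against 12.1%) by the DESeq2 likelihood ratio test. With no filter on low counts they were 33 (11.6 against 12.4%, the latter over a set widened by genes of low counts). Among the 141 members of at least 10 CPM, 14 were called in the fit that called 22 of all 284 members. The share called over all genes of at least 10 CPM was not computed. Leaving out single libraries gave 12 to 48.

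The difference in the share of counts stayed below 0 in every alternative run, at -0.0295 to -0.0092 percentage points when libraries were left out. Hairpin log2 fold changes that changed sign when single libraries were left out, none of them called, ran from -0.14 to 0.044 for Gm9794, -0.21 to 0.011 for Rps10-ps2, -0.17 to 0.049 for Eif4a-ps4, -0.13 to 0.014 for Gm4204, -0.070 to 0.19 for Rpl17-ps10, -0.064 to 0.26 for Gm9800, -0.11 to 0.078 for Rpsa-ps10, -0.18 to 0.21 for Gm10052, -0.25 to 0.057 for Gm9118, -0.28 to 0.24 for Gm9824, -0.24 to 0.15 for Gm12715, -0.52 to 0.022 for Gm3571, -0.17 to 0.44 for Gm6457 and -0.20 to 0.28 for AC121151.1. AC121151.1 also turned to -0.033 with limma-voom and to -0.0073 and -0.012 with limma on log2(FPKM + 1) and log2(FPKM + 0.1). The number 2 contrast of Gm44126 ran from -0.77 to 0.14. The causes were not tested. With 3 libraries a group and 143 of the members under 10 CPM, true differences may have gone uncalled. The smallest difference that could be detected was not worked out for each member.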

Other observations

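A few parents of the members varied widely between libraries, Gapdh in a way that follows neither the hairpin groups nor the replicate numbers. These genes were picked after their values were seen and were not tested. Gapdh, the glycolytic dehydrogenase, had 189, 207 and 14.1 CPM in shIRS2, against 14.9, 16.7 and 205 CPM in shControl libraries. It was thus at 2 separate levels, high in 3 libraries and low in 3, across both groups and all replicate numbers. None of its 4 copies among the members was at 2 such separate levels. Gm7336 had 28.4, 22.1 and 29.96 CPM in shIRS2, against 41.8, 27.6 and 23.7 CPM in shControl libraries. It leaned to higher values in the 3 libraries with low Gapdh, but their range overlapped that of the other 3. Gm5559 had 18.4, 17.4 and 18.4 CPM in shIRS2, against 18.01, 16.1 and 14.2 CPM in shControl libraries. Gm12070 and Gm13394 lay between 5.17 and 11.4 CPM throughout.

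Ndufa12, a subunit of respiratory complex I, had 19.7, 72.9 and 40.6 CPM in shIRS2, against 21.7, 30.02 and 17.1 CPM in shControl libraries. Within each hairpin group Ndufa12 was highest under number 2, although shIRS2 library 3 was above shControl library 2. Its copy Gm15920 had 35.6, 15.5 and 37.3 CPM in shIRS2, against 34.0, 43.4 and 37.8 CPM in shControl libraries, and was lowest in the library where Ndufa12 was highest. With Sumo2, described above, these were the parents of at least 10 CPM whose highest library was at least 4 times the lowest: 3 of 209, or 1.44%, against 8 of the 8553 other protein-coding genes at that level, or 0.0935%. The median ratio of highest to lowest library was 1.23 among these parents and 1.28 among the other coding genes. Among the 284 members themselves 3 reached that ratio, Gm44126, Gm10241 and Gm6087, and the median was 1.46 at their lower counts.

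The pair of Rpl17 and its copy Rpl17-ps10 shifted in opposite directions between libraries. Rpl17, a protein of the large ribosomal subunit, had 167, 108 and 122 CPM in shIRS2, against 120, 156 and 167 CPM in shControl libraries, and Rpl17-ps10 had 134, 173 and 156 CPM in shIRS2, against 187, 133 and 139 CPM in shControl libraries. The sum was 301, 282 and 278 CPM in shIRS2, against 307, 289 and 306 CPM in shControl libraries, with 44.6 to 61.5% of it on the pseudogene.

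Gm11585, an intergenic copy identical to the splicing-associated cyclophilin gene Ppih, had 14.2, 18.99 and 14.6 CPM in shIRS2, against 6.67, 5.46 and 19.8 CPM in shControl libraries. It was low in shControl libraries 1 and 2 alone. Ppih had 36.6, 26.1 and 27.3 CPM in shIRS2, against 46.1, 51.7 and 26.7 CPM in shControl libraries.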
